A study of Mus musculus with 81 samples.

Results

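Kit, Flt3, Cd34, Gata2, Myb, Meis1, Gfi1 and Sox4 are 8 genes known for their use in mouse myeloid progenitors. Not all of them were low in the macrophages here. Meis1 had its highest mean in peritoneal macrophages and Sox4 in BMDMs, and Cd34 was as high in some BMDMs as in any marrow culture. The 8 genes were chosen by symbol from the 54079 genes listed in every one of 81 RNA-seq libraries, and all 8 were found under the same identifier in each library. The mice were young adult C57BL/6 animals. WT mice carried floxed copies of both histone H3.3 genes (H3f3a fl/fl, H3f3b fl/fl) without cre, and cKO mice carried the same floxed genes with LysM cre/cre. Bone marrow was grown in medium conditioned by L929 cells, a source of the macrophage growth factor CSF1, to give bone marrow-derived macrophages (BMDMs). Libraries came from marrow cultures on days 3, 5 and 7 of each genotype (18 libraries), from day 8 BMDMs left untreated or given interferon-γ for 12 h (12 libraries), and from peritoneal macrophages taken directly from mice (6 libraries). A further 18 libraries came from WT and cKO cultures grown without antibody, with an isotype control antibody or with an antibody to IFNAR1, the receptor of type I interferons. The last 27 came from 3 sets of WT and cKO BMDMs and from cKO BMDMs that also lacked Sting, Mavs or Irf7 (cKO:StingKO, cKO:MavsKO and cKO:Irf7KO). Groups held 3 libraries, except the cKO day 8 groups, which held 2 each because 2 further cKO libraries have a title and a library name that disagree on interferon-γ. The labels call the libraries of a group biological replicates but name no animals, so p-values measure the spread between these libraries.

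The 8 genes have known roles in early blood formation. Kit is the receptor for stem cell factor and Flt3 the receptor for Flt3 ligand, both tyrosine kinases of the progenitor surface. Cd34 is a surface sialomucin used to sort stem and progenitor cells. Gata2 and Myb are transcription factors needed for stem and progenitor cells, and Meis1 is a homeobox cofactor of HOX proteins. Gfi1 is a zinc finger repressor of transcription that granulocyte development needs, and Sox4 is an HMG box factor found in many immature cell types. As marrow cells become macrophages under CSF1, progenitor receptors and factors are normally shut off while macrophage genes are switched on. LysM cre is driven from the lysozyme 2 locus, which becomes active as myeloid cells mature, so deletion in a progenitor culture can be incomplete.

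In the build GRCm38, Kit (ENSMUSG00000005672.12) lies on chromosome 5 from 75574916 to 75656722, Flt3 (ENSMUSG00000042817.15) on chromosome 5 from 147330741 to 147400489, and Cd34 (ENSMUSG00000016494.9) on chromosome 1 from 194938819 to 194961279. Gata2 (ENSMUSG00000015053.14) lies on chromosome 6 from 88193891 to 88207032, Myb (ENSMUSG00000019982.15) on chromosome 10 from 21124935 to 21160984, and Meis1 (ENSMUSG00000020160.18) on chromosome 11 from 18879817 to 19018985. Gfi1 (ENSMUSG00000029275.18) lies on chromosome 5 from 107716657 to 107726036, and Sox4 (ENSMUSG00000076431.4) on chromosome 13 from 28948919 to 28953713. The sequences just before the start are printed for Kit, Gata2 and Myb, which fell together during culture, for Cd34, whose fall did not pass the test in cKO cells, and for Sox4, which passed in neither genotype. They are RefSeq promoter sequences of GRCm38.p6, in the direction of transcription, with the bases inside the annotated gene left off. Capitals mark an ETS core (AGGAAG), an E-box (CAGCTG) or a MYB motif (CNGTTG) on either strand.
Kit, chr5:75574737-75574915, plus strand: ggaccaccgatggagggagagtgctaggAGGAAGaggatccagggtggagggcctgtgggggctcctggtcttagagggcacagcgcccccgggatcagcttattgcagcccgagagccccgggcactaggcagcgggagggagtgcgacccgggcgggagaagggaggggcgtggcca
Gata2, chr6:88193641-88193890, plus strand: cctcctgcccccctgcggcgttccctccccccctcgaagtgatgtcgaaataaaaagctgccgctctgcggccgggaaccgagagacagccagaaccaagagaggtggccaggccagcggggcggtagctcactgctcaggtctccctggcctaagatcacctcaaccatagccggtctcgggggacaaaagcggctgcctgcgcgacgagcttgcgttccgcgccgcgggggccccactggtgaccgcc
Myb, chr10:21160985-21161234, minus strand: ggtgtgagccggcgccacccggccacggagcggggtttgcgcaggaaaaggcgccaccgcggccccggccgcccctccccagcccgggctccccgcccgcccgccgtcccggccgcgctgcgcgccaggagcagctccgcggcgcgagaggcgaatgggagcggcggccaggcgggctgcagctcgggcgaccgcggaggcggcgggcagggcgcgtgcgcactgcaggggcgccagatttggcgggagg
Cd34, chr1:194938571-194938818, plus strand: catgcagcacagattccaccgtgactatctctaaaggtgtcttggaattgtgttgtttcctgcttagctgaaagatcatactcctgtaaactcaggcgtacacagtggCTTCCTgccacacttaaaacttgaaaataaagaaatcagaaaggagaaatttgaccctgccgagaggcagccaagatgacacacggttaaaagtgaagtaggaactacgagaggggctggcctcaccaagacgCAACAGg
Sox4, chr13:28953714-28953949, minus strand: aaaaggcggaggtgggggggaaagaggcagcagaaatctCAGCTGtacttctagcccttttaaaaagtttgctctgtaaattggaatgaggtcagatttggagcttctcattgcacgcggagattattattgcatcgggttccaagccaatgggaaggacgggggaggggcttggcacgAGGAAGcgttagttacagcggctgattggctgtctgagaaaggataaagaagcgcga
The Myb sequence is the most GC-rich, with 81.2% G or C in the 250 bases before the RefSeq start, against 70.8% for Kit, 67.2% for Gata2, 50.8% for Sox4 and 46.4% for Cd34. Over all 11 promoter entries of the 8 genes, the ETS core was found in the 250 upstream bases of 5 entries (Cd34, both Kit entries, 1 Gfi1 entry and Sox4), against 29.5% of 32841 promoters. The Kit entries overlap and hold the same site, which is counted for each of them. The RUNX motif (TGTGGT, 14% of promoters) was found for Meis1, the E-box (13%) for Sox4 and the MYB motif (29.3%) for Cd34. The GATA motif (AGATAA, 9.99%), the interferon motifs GAS (TTCNNNGAA, 7.02%) and ISRE (2.98%) and the TATA box (TATAAA, 12.4%) were found in none of the 11. A match describes letters in this window and not binding.

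Levels are given as CPM, the counts on a gene for every 1000000 counts on all genes after TMM scaling, and changes are log2 fold changes with their standard error (SE) and a p-value adjusted over all genes tested in that experiment, called at an adjusted p under 0.05 in edgeR's quasi-likelihood test. Counts on genes in a library lay between 14419697 and 20220329 for the time course, between 3614967 and 9879339 for day 8, between 7625225 and 23381318 for peritoneal cells, between 5295144 and 34380735 for the antibody cultures and between 21492762 and 45564225 for the BMDM sets. The targeted H3f3a had a mean of 54.9, 47.0 and 55.5 CPM (WT) and 15, 9.28 and 8.51 CPM (cKO) at the 3 days in turn. H3f3b differed less there, with 234 CPM (WT) and 202 CPM (cKO) at day 3 and 222 and 168 CPM at day 7. Its loss was larger in the antibody experiment. Means there were 376, 374 and 305 CPM (WT) and 48.8, 49.7 and 35.2 CPM (cKO) without, with control and with IFNAR1 antibody. H3f3b means were 243 to 254 CPM in the WT sets, 194 to 203 CPM in the cKO sets and 121 CPM in cKO:Irf7KO. The state of H3f3b in cKO cells thus differed between experiments. All 12 macrophage markers (Csf1r, Adgre1, Cd68 and others) were detected in every group, with summed levels of 3754 to 6831 CPM in WT day 3 cultures and 19640 to 23031 CPM in WT peritoneal macrophages.

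In WT cultures, 6 of the 8 genes fell between day 3 and day 7, and Meis1 and Sox4 did not pass the test. Myb had 13.4, 15.8 and 22.0 CPM in the day 3 WT libraries, 2.15, 3.03 and 3.87 CPM on day 5 and 0.469, 0.489 and 1.24 CPM on day 7. Gfi1 had 7.49, 9.08 and 19.1 CPM on day 3, 1.19, 1.21 and 1.96 CPM on day 5 and 0.156, 0.0699 and 0.258 CPM on day 7, the last from 3, 1 and 5 reads. For both factors the 3 days did not overlap, and each later day lay wholly below the day before. From day 3 to day 7 Gfi1 changed by -6.08 ± 0.663 (log2, SE, n = 3 and 3, adjusted p = 2.95e-05, edgeR) and kept 1.36% of its day 3 mean. Myb changed by -4.5 ± 0.374 (adjusted p = 5.05e-06, edgeR) and kept 4.29%. Reads from bulk cultures cannot tell fewer progenitor cells from less RNA of these genes per cell.

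The receptors and Gata2 fell in the same WT cultures. Kit had 9.53, 9.49 and 15.9 CPM on day 3, 2.98, 2.48 and 2.53 CPM on day 5 and 3.33, 0.629 and 0.930 CPM on day 7. Day 7 replicate 1 was as high as the day 5 libraries and lay well above the other two of its day. Gata2 had 2.32, 1.82 and 1.79 CPM on day 3, 0.179, 0.552 and 0.464 CPM on day 5, and 3, 0 and 2 reads on day 7, with no overlap between days. Flt3 had 0.341, 2.34 and 1.74 CPM on day 3, 0.417, 0.662 and 0.670 CPM on day 5 and 0.156, 0.140 and 0.103 CPM on day 7. WT replicate 1 was already low in Flt3 on day 3, from 5 reads, and overlapped with day 5. The changes from day 3 to day 7 were -4.28 ± 0.613 for Gata2 (adjusted p = 0.000209), -3.44 ± 0.759 for Flt3 (adjusted p = 0.00469) and -2.79 ± 0.452 for Kit (adjusted p = 0.000724, n = 3 and 3, edgeR), which left 4.38%, 9.03% and 14% of the day 3 means.

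Cd34 took another course from that of the factors. It had 3.41, 14.9 and 14.1 CPM in WT cells on day 3, 0.894, 19.6 and 20.2 CPM on day 5 and 0.260, 0.699 and 2.53 CPM on day 7. The WT library numbered 1 was the lowest of the 3 on each day. Those numbered 2 and 3 were high on days 3 and 5 and low on day 7. The numbers were not taken to link WT libraries of different days. The change from day 3 to day 5 was 0.32 (adjusted p = 0.811) and from day 3 to day 7 -3.18 ± 0.895 (adjusted p = 0.0187, edgeR), and the day 7 call was lost without WT day 3 replicate 2 (-2.89, adjusted p = 0.0577), without WT day 3 replicate 3 (-2.96, adjusted p = 0.0554) and without WT day 7 replicate 2 (-2.96, adjusted p = 0.0667). The homeobox gene Meis1 did not follow the others. It had 3.34 to 3.87 CPM on day 3, 4.23 to 5.67 CPM on day 5 and 3.54 to 5.84 CPM on day 7, a change of 0.35 from day 3 to day 7 (adjusted p = 0.508). Sox4 had 2.79 to 3.93 CPM on day 3, 2.03 to 5.41 CPM on day 5 and 1.82 to 3.91 CPM on day 7, a change of -0.21 (adjusted p = 0.672). Across all genes tested in WT cells 24.5% were called between day 3 and day 7, 12.6% higher and 11.9% lower, against 6 of the 8 genes lower. The median change of the 8 was -3.31, against 0.05 over all genes.

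For 4 of the 8 genes the WT decline was already called by day 5. Between day 3 and day 5, 2.9% of all genes were called and 2.26% were lower. The 4 genes were Gfi1 (-3.02 ± 0.472, adjusted p = 0.00338), Myb (-2.49 ± 0.310, adjusted p = 0.00074), Gata2 (-2.26 ± 0.460, adjusted p = 0.0134) and Kit (-2.13 ± 0.427, adjusted p = 0.0139, n = 3 and 3, edgeR). The Gfi1 and Myb calls held without each library. The Kit call was lost without WT day 3 replicate 3 (-1.84, adjusted p = 0.0909) and without WT day 5 replicates 1, 2 or 3 (-2.21, -2.11 and -2.10, adjusted p = 0.0595, 0.0661 and 0.0677), and the Gata2 call without WT day 3 replicate 3 (-2.33, adjusted p = 0.0521) or WT day 5 replicates 1 or 3 (-1.94 and -2.38, adjusted p = 0.0786 and 0.0568). Between day 5 and day 7 none of the 8 passed in edgeR, 5 had an unadjusted p under 0.05 and DESeq2 called 3 (Cd34, Myb and Gfi1), where edgeR called 0.15% of all genes. Myb changed by -2.0 (adjusted p = 0.0611) and Cd34 by -3.50 (adjusted p = 0.0863). Both were called without WT day 5 replicate 1 (-2.21 and -4.06, adjusted p = 0.0158 and 0.00741) and without WT day 7 replicate 3 (-2.67 and -4.91, adjusted p = 0.02 and 0.0435).

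**Figure D1:**
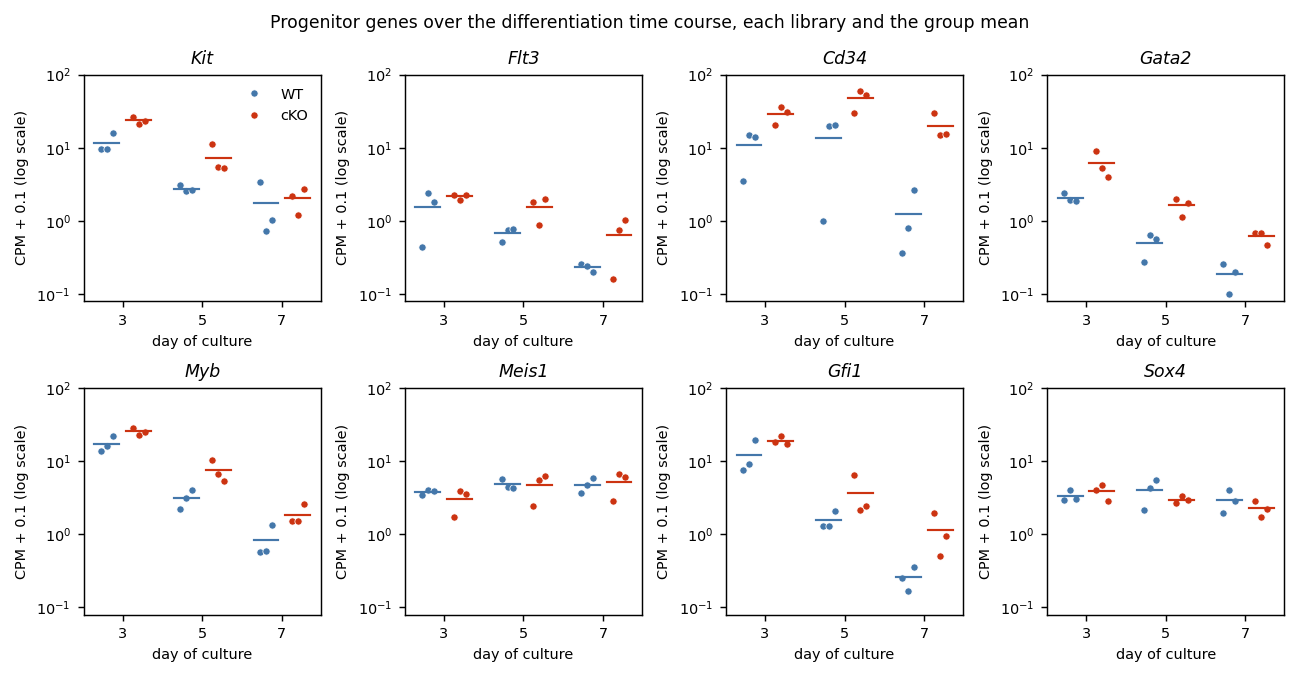
Level of each of the 8 genes in every time course library, as CPM + 0.1 on a log scale, against day of culture (3, 5 and 7), for WT and cKO libraries. Kit, Gata2, Myb and Gfi1 fall in both genotypes, Cd34 lies at 0.260 to 2.53 CPM in WT and 15 to 29.3 CPM in cKO libraries of day 7, and Meis1 and Sox4 lie between 1.63 and 6.61 CPM in every library.

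In the cKO cultures Kit, Flt3, Gata2, Myb and Gfi1 fell between day 3 and day 7, and Cd34, Meis1 and Sox4 did not pass the test. Myb had 28.6, 22.6 and 24.9 CPM in the day 3 cKO libraries, 10.2, 6.61 and 5.28 CPM on day 5 and 1.41, 1.40 and 2.46 CPM on day 7. Gfi1 had 18.1, 21.8 and 17 CPM on day 3, 6.33, 2.06 and 2.29 CPM on day 5 and 1.88, 0.410 and 0.838 CPM on day 7. Again each day lay below the one before for both factors. Kit had 26.3, 21.0 and 23.3 CPM on day 3, 11.2, 5.29 and 5.22 CPM on day 5 and 2.12, 1.11 and 2.67 CPM on day 7. Gata2 had 8.85, 5.26 and 3.92 CPM on day 3, 1.89, 1.03 and 1.66 CPM on day 5 and 0.587, 0.585 and 0.367 CPM on day 7. The changes from day 3 to day 7 were -4.18 ± 0.494 for Gfi1 (adjusted p = 3.61e-05), -3.83 ± 0.332 for Myb (adjusted p = 3.67e-06), -3.57 ± 0.441 for Kit (adjusted p = 5.65e-05) and -3.54 ± 0.392 for Gata2 (adjusted p = 1.48e-05, n = 3 and 3, edgeR). What remained on day 7 was 5.5%, 6.94%, 8.35% and 8.54% of the day 3 mean.

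Cd34 had 20.5, 35.4 and 30.2 CPM in cKO cells on day 3, 29.9, 60.3 and 52.9 CPM on day 5 and 29.3, 15 and 15.1 CPM on day 7. The day 7 libraries overlapped with those of day 3, and the change was -0.54 ± 0.687 (adjusted p = 0.658), with 69.0% of the day 3 mean left. Flt3 had 2.13, 1.85 and 2.19 CPM on day 3, 1.72, 0.784 and 1.89 CPM on day 5 and 0.0587, 0.644 and 0.943 CPM on day 7. It fell by 1.87 ± 0.544 from day 3 to day 7 (adjusted p = 0.0287), a call lost without any cKO day 3 library (-1.85, -1.94 and -1.82 without replicates 1, 2 and 3, adjusted p = 0.0809, 0.0575 and 0.0676) and without cKO day 7 replicate 1 or 2 (-1.37 and -1.97, adjusted p = 0.074 and 0.0798). Day 7 replicate 1, with 1 read, lay far below the other two. Meis1 (1.63 to 6.61 CPM over the 9 cKO libraries) changed by 0.79 (adjusted p = 0.179) and was called higher without cKO day 7 replicate 1 (1.08, adjusted p = 0.0478). Sox4 changed by -0.79 (adjusted p = 0.141), with day 7 libraries at 1.64 to 2.76 CPM, all below the 2.77 to 4.65 CPM of day 3. In all, 5 of the 8 genes were lower on day 7 than on day 3, where 14.7% of all genes were called and 8.25% were lower.

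By day 5 Gfi1 (-2.43 ± 0.424, adjusted p = 0.00365), Gata2 (-1.98 ± 0.329, adjusted p = 0.00229), Myb (-1.79 ± 0.286, adjusted p = 0.0023) and Kit (-1.71 ± 0.386, adjusted p = 0.0186, n = 3 and 3, edgeR) had fallen in cKO cells, 4 of 8 genes where 4.89% of all genes were called and 3.28% were lower. The Kit call was lost without cKO day 3 replicate 1 (-1.61, adjusted p = 0.0723) or cKO day 5 replicates 2 or 3 (-1.51 and -1.52, adjusted p = 0.117 and 0.126). From day 5 to day 7 Myb was called (-2.04 ± 0.337, adjusted p = 0.0448), where 0.0501% of all genes were called. That call was lost without cKO day 5 replicate 1 (-1.76, adjusted p = 0.205) and without cKO day 7 replicates 2 or 3 (-1.91 and -2.38, adjusted p = 0.398 and 0.132). Kit changed by -1.86 over the same days (adjusted p = 0.193), and its day 7 libraries all lay below those of day 5. Per kilobase of gene length, Gfi1 was the highest of the 8 on day 3 in both genotypes (3.73 CPM per kb in WT and 5.95 CPM per kb in cKO), and on day 7 the highest was Sox4 in WT (0.593 CPM per kb) and Cd34 in cKO (2.72 CPM per kb).

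Set against WT on the same day, cKO cells had more of several of these mRNAs, and which of them passed the test changed with the day. On day 3 the Gata2 level was 8.85, 5.26 and 3.92 CPM in cKO against 2.32, 1.82 and 1.79 CPM in WT. It was called higher (1.6 ± 0.321, adjusted p = 0.0041, n = 3 and 3, edgeR), the only one of the 8, where 8.65% of all genes were called and 6% were higher, and the call held in all 14 alternative analyses. Kit (1.01 ± 0.375, adjusted p = 0.113), Cd34 (1.40 ± 0.709, adjusted p = 0.262) and Myb (0.57 ± 0.273, adjusted p = 0.233) did not pass. For these genes the libraries of the 2 genotypes did not overlap. The share of all genes whose libraries separate in this way was not counted, on this or any later day. Separation is therefore a description and adds nothing to the test. Flt3, Meis1, Gfi1 and Sox4 overlapped between genotypes. On day 5 Gata2 (1.88 ± 0.473, adjusted p = 0.0353) and Myb (1.27 ± 0.315, adjusted p = 0.0371) were called higher, where 3.12% of all genes were called and 2.46% were higher. Kit (1.43, adjusted p = 0.0969), Cd34 (1.81, adjusted p = 0.227), Flt3 (1.28, adjusted p = 0.301) and Gfi1 (1.26, adjusted p = 0.24) were higher in every cKO library than in any WT library but did not pass. The Gata2 call was lost without WT day 5 replicates 1, 2 or 3 (1.56, 2.17 and 2.01, adjusted p = 0.155, 0.0898 and 0.12) and without cKO day 5 replicates 1 or 3 (1.71 and 1.81, adjusted p = 0.189 and 0.103), and the Myb call without WT day 5 replicates 1, 2 or 3 (1.08, 1.28 and 1.5, adjusted p = 0.161, 0.131 and 0.0811) and without cKO day 5 replicate 1 (0.98, adjusted p = 0.239).

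On day 7 Cd34 was the 1 gene of the 8 called between genotypes by edgeR, while DESeq2 called Cd34, Gata2 and Gfi1. Cd34 had 29.3, 15 and 15.1 CPM in cKO against 0.260, 0.699 and 2.53 CPM in WT. The difference was 4.04 ± 0.887 (adjusted p = 0.0322, n = 3 and 3, edgeR), where 1.82% of all genes were called and 1.13% were higher. It was not called without WT day 7 replicate 2 (3.82, adjusted p = 0.109) or without cKO day 7 replicates 1, 2 or 3 (3.63, 4.21 and 4.21, adjusted p = 0.112, 0.055 and 0.0602). Gata2 (2.35, adjusted p = 0.134), Gfi1 (2.56, adjusted p = 0.155) and Myb (1.23, adjusted p = 0.166) were higher in every cKO library than in any WT library without passing. Flt3 differed by 2.02 (adjusted p = 0.271) and overlapped, with 1 cKO library below every WT library. Kit differed by 0.23 (adjusted p = 0.862) and overlapped. Meis1 and Sox4 differed by 0.13 and -0.37 (adjusted p = 0.895 and 0.642). The median difference of the 8 genes was 0.62 on day 3, 1.28 on day 5 and 1.63 on day 7, against 0.04, 0.01 and 0.01 over all genes. None of the 8 was called when the genotype difference on day 7 was set against that on day 3 (edgeR, 1 with an unadjusted p under 0.05, DESeq2 0), where 0.0439% of all genes were called. The nearest was Cd34, with a change of 2.64 ± 1.13 (adjusted p = 0.283). The differences of day 5 from day 3 and of day 7 from day 5, added after the data were seen, called none either (0 at an unadjusted p under 0.05, DESeq2 0).

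**Figure D2:**
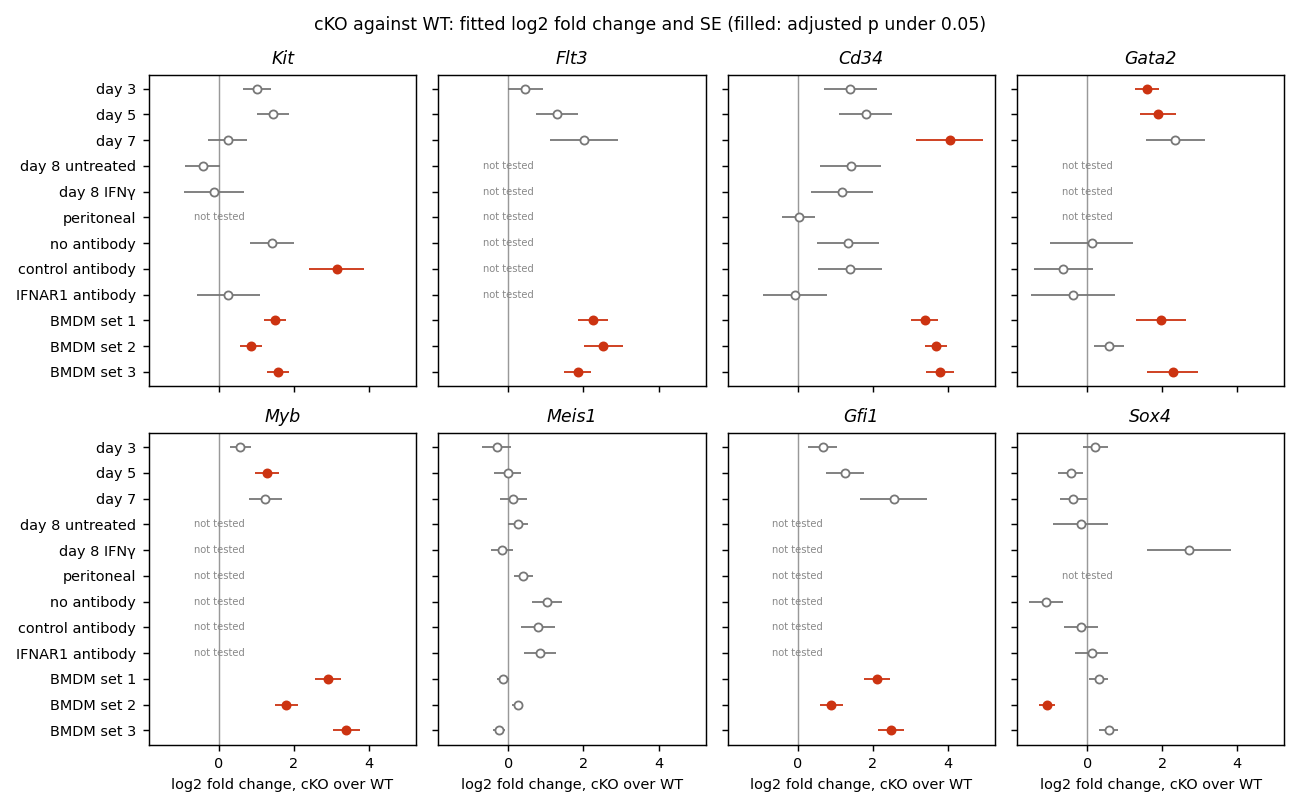
Log2 fold change of cKO over WT for each of the 8 genes in every comparison of the 2 genotypes in which it was tested, with bars of 1 SE. Filled points passed an adjusted p under 0.05, which in the time course are Gata2 on day 3, Gata2 and Myb on day 5 and Cd34 on day 7, and Meis1 has no filled point.

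Markers of other cells moved with the genotype in these cultures. On day 3 the 13 mast cell and basophil markers summed to 27.2 to 67.1 CPM in cKO against 9.47 to 15.2 CPM in WT, and 5 of the 7 tested rose (Prss34 2.94, Mcpt8 2.64, Cd200r3 2.09 and Cpa3 2.04 among them), while Mcpt4, Tpsb2 and Mrgprb2, which mark connective tissue mast cells, were at 0 in the cKO day 3 libraries. Kit and Gata2 are also used by mast cells and basophils. The 12 B lineage markers summed to 31.4 to 67.3 CPM in cKO against 15.3 to 17.5 CPM in WT on day 3, and 6 of the 7 tested rose (Ms4a1 1.88, Pax5 1.49 and Cd79a 1.46 among them). The 14 stromal and endothelial markers, a group of cells in which Cd34 is also known, summed to 134 to 189 CPM in cKO against 30.8 to 54.3 CPM in WT on day 7, and 1 of 9 tested rose (Postn, 3.05). On day 3 and day 5 Kdr (2.04 and 2.18) and Pecam1 (1.06 and 1.90) rose among the same 9. The part of these markers in the differences of Kit, Gata2 and Cd34 was not tested. On day 5 mast cell and basophil markers rose for 2 of 7 and B lineage markers for none, and on day 7 none of either list was called. Dendritic cell markers rose for 3 of 9 on day 3 and for none on days 5 and 7, and no neutrophil (10 tested), erythroid or megakaryocyte (5), T and NK cell (1) or proliferation (20) gene was called between genotypes on any of the 3 days. Of 12 macrophage markers, 2 were lower in cKO on day 3 and none was called on days 5 or 7.

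Other genes of immature cells were read beside the 8. A list of 12 promyelocyte genes, here called granule genes, also held genes that code for no granule protein, such as Ly6c2. Of the 12 on this list, 2 rose in cKO on day 3, 6 on day 5 and 5 on day 7, and none fell. On day 7 the largest were Ly6c2 (3.79), a monocyte surface protein, and the granule proteases Ctsg (3.06), Prtn3 (2.83) and Elane (2.82). Of 33 other stem and progenitor genes tested, 3 rose and 1 fell on day 3, 2 rose on day 5 and 1 rose on day 7. The stem cell antigen gene Ly6a, which interferon also induces, rose on all 3 days (5.94, 5.81 and 3.78). Of 19 ligands and partner factors, the demethylase Kdm1a (0.44) was among the 2 that rose on day 3 and Tal1 (-0.41) was the 1 that fell, and none was called on days 5 and 7. Over culture, 14 of the 33 stem genes fell and 5 rose in WT cells between day 3 and day 7, and 12 fell and 2 rose in cKO cells. Among those that fell in WT were Prom1 (-5.14), Cebpe (-4.04) and Hlf (-3.51). Granule genes fell for 8 of 12 in WT, led by Elane (-7.10), Prss57 (-6.96), Ms4a3 (-6.81) and Ctsg (-6.76), and for 10 of 12 in cKO, led by Nkg7 (-5.68). Among the partners the ETS factor Erg fell (-4.59 in WT and -4.09 in cKO), while the Kit ligand Kitl rose (1.79 and 1.98), and in WT Lyl1 (1.39) and Flt3l (1.18) rose too. All 10 neutrophil genes, 6 of 7 mast cell and basophil genes, 6 of 7 B lineage genes and 4 of 5 erythroid and megakaryocyte genes fell in each genotype. Macrophage markers rose for 6 of 12 in WT and 1 of 12 in cKO.

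Across the 18 time course libraries, which share days and genotypes, Myb and Gfi1 ran closest of any pair of the 8 genes (r = 0.972 of log2 CPM), followed by Kit and Gfi1 (r = 0.935) and Gata2 and Myb (r = 0.927). Within groups the correlations of these pairs were 0.56, 0.54 and 0.21 in turn, and the highest of any pair was that of Cd34 and Sox4 (0.73). Over the 18 libraries Meis1 ran against each of the other genes, from r = -0.60 with Kit to -0.13 with Cd34. Within groups it ran with Flt3 (r = 0.30) and Cd34 (r = 0.08) and against the rest. Among 11244 genes whose log2 CPM averaged 1 or more, those most like Gfi1 were the neutrophil proteases Prtn3 (r = 0.987) and Elane (r = 0.987), and Elane was also the third most like Myb (r = 0.980), after Gfod1 (r = 0.984) and Serpinb1a. Kit was most like Rgcc (r = 0.966), Hp and Mcemp1 (r = 0.957). Gata2 was most like Trem3 (r = 0.967), the endothelial marker Pecam1 (r = 0.957) and Dusp5, and Cd34 most like the integrin gene Itgb7 (r = 0.932), Plcg2 and Kctd17. Flt3 (Gapt, r = 0.890, A430078G23Rik and Gpr141), Meis1 (Olfr111, r = 0.921, Vps13a and Tbp) and Sox4 (Sbk1, r = 0.893, Endov and Ptgs1) had looser neighbours. These are descriptions of shared time courses, with no test.

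On day 8, 4 of the 8 genes passed the filter on low counts (Kit, Cd34, Meis1 and Sox4). Flt3, Gata2 and Gfi1 had 0 to 2 reads in every placed day 8 library and Myb had few, with 0.318 to 0.766 CPM in untreated WT. Cd34 was the most variable, with 37.3, 3.92 and 12.8 CPM in untreated WT and 41.1 and 54.3 CPM in untreated cKO. Every cKO library was above every WT library, but WT replicate 1 came close to them, and the difference was 1.41 ± 0.807 (adjusted p = 1, edgeR). None of the 4 genes was called between untreated genotypes (0 at an unadjusted p under 0.05, DESeq2 0), where 0.658% of all genes were. Without the filter on low counts Cd34 was called (1.43, adjusted p = 0.0116). The stromal and endothelial markers summed to 116 to 177 CPM in untreated cKO and 58.6 to 140 CPM in untreated WT.

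The cKO interferon-γ replicate 1 library stood apart from the rest of day 8. It held 3614967 counts on genes and had a TMM factor of 0.459, against 0.892 to 1.25 in the other placed libraries, which raises its CPM values relative to theirs. It differed from replicate 2 of its group by a chi-square per degree of freedom of 332, against 6.94 to 15.7 for the other pairs of day 8.

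Interferon-γ lowered Kit in both genotypes. In WT cells Kit went from 3.83, 6.99 and 3.06 CPM to 0.535, 0.297 and 0.601 CPM (5, 2 and 5 reads), a change of -3.21 ± 0.513 (adjusted p = 0.000607, n = 3 and 3, edgeR). In cKO cells it went from 3.48 and 3.32 CPM to 1.2 and 0.235 CPM (2 reads each), a change of -2.90 ± 0.751 (adjusted p = 0.0128, n = 2 and 2). The groups did not overlap in either genotype. Without the library that stood apart, the cKO change was -3.76. The cKO call was lost without cKO untreated replicate 1 (-2.83) and without cKO interferon-γ replicate 2 (-1.52). Each of these 3 fits leaves 1 library in a group. The cKO call was also lost when the 2 conflicting libraries were placed by their titles (-0.47, adjusted p = 0.947, edgeR). It held when they were placed by their library names. Sox4 fell in WT from 0.985, 3.50 and 1.48 CPM to 0.214, 0.297 and 0.240 CPM (2 reads each), by -2.94 ± 0.864 (adjusted p = 0.0207), and this call was lost without WT untreated replicate 2 (-2.30, adjusted p = 0.0767) or without interferon-γ replicates 1, 2 or 3 (-2.84, -3.05 and -2.91, adjusted p = 0.0705, 0.0612 and 0.0724). So 2 of 4 genes were lower in WT and 1 of 4 in cKO, where 38.9% and 33.9% of all genes were called and 19.3% and 16.4% were lower. In cKO cells Sox4 went from 1.30 and 2.24 CPM to 4.82 and 0.352 CPM, from 8 and 3 reads, the first in the library that stood apart. The change was -0.05 (adjusted p = 0.971), and -2.23 (adjusted p = 0.0896) without that library. The difference between the genotypes in this change was not called (2.88 ± 1.33, adjusted p = 0.541, added after the data were seen), and ran from 0.72 to 4.37 when 1 library was left out.

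Cd34 and Meis1 did not pass for interferon-γ. Cd34 had 20.4, 3.12 and 6.61 CPM in treated WT and 24.1 and 21.9 CPM in treated cKO cells, changes of -0.83 (adjusted p = 0.416) and -1.06 (adjusted p = 0.406). WT replicate 1 was the highest WT library with and without interferon-γ. Meis1 had 3.49 to 3.92 CPM in untreated and 2.67 to 3.86 CPM in treated WT cells, and 3.80 and 4.86 CPM against 2.41 and 3.29 CPM in cKO cells (-0.11 and -0.54, adjusted p above 0.05). Between genotypes under interferon-γ none of the 4 genes passed in edgeR (1 at an unadjusted p under 0.05), DESeq2 called Sox4, and 5.48% of all genes were called. Sox4 differed by 2.71 ± 1.11 (adjusted p = 0.155), by 0.52 (adjusted p = 0.853) without cKO interferon-γ replicate 1, the library that stood apart, and by 4.19 (adjusted p = 0.0141) without cKO interferon-γ replicate 2, which leaves the library of 8 Sox4 reads alone in its group and rests on the spread of the other groups. Among the other lists, 13 of 24 stem and progenitor genes rose and 4 fell with interferon-γ in WT, and 12 rose and 2 fell in cKO. The stromal and endothelial markers summed to 690 to 784 CPM in treated cKO and 179 to 338 CPM in treated WT, and 2 of 10 rose in each genotype.

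**Figure D3:**
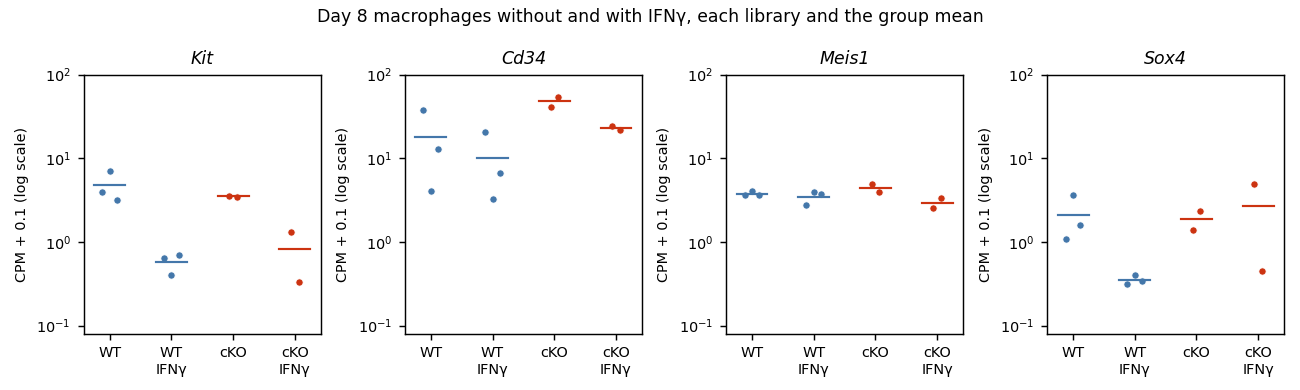
Level of the 4 genes tested at day 8 (Kit, Cd34, Meis1 and Sox4) in every placed day 8 library, as CPM + 0.1 on a log scale, for WT and cKO cells without and with interferon-γ. Kit drops with interferon-γ in both genotypes (from 3.06 or more to 1.2 CPM or less), and Cd34 spans 3.12 to 54.3 CPM.

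Peritoneal macrophages, which matured in the mouse, had Meis1 as the highest of the 8 genes and little of the others. Meis1 had 7.74, 12.0 and 11.1 CPM in WT and 12.5, 11.5 and 17.4 CPM in cKO cells, a difference of 0.39 ± 0.249 (adjusted p = 0.721, n = 3 and 3, edgeR). Per kilobase it was the highest of the 8 in both genotypes (0.979 and 1.31 CPM per kb). Its mean there was above that of each of the 25 BMDM and marrow groups, which ran from 1.99 to 5.38 CPM, although the experiments were scaled separately and not tested against each other. Cd34 had 2.69, 1.49 and 1.05 CPM in WT and 1.75, 1.11 and 2.34 CPM in cKO cells (0.02 ± 0.444, adjusted p = 0.992), and the genotypes overlapped. Kit had 0.130 to 0.638 CPM, Sox4 0.142 to 0.561 CPM, Gata2 0 to 4 reads, Myb 0 to 11 and Gfi1 0 to 19 reads a library, and these and Flt3 did not pass the filter. None of the 2 tested genes was called (0 at an unadjusted p under 0.05, DESeq2 0), where 1.06% of all genes were. The mast cell and basophil markers summed to 173 to 327 CPM in WT and 327 to 386 CPM in cKO cells, led by Hdc. Of the other lists 1 of 21 stem genes rose and none fell, and no partner gene (17 tested) or proliferation gene (20) was called.

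In the antibody experiment, 5 of the 8 genes passed the filter and Flt3, Myb and Gfi1 did not, with at most 34 reads over any group. Kit was near its floor. It had 0, 0.564 and 0.455 CPM in WT and 0.586, 0.880 and 1.40 CPM in cKO cells without antibody, 0.140, 0 and 0.366 CPM (2, 0 and 4 reads) in WT and 1.47, 1.26 and 0.932 CPM (53, 7 and 9 reads) in cKO cells with control antibody, and 0.154, 0.313 and 0.277 CPM in WT and 0.253, 0.314 and 0.286 CPM in cKO cells with IFNAR1 antibody. Genotypes did not overlap in the first and second conditions and overlapped in the third. With control antibody Kit was called higher in cKO (3.13 ± 0.724, adjusted p = 0.0159, n = 3 and 3, edgeR), 1 of 5 genes tested where 5.11% of all genes were called and 3.43% were higher. The call was lost without WT replicate 1 (3.13, adjusted p = 0.081), WT replicate 2 (2.40, adjusted p = 0.118) or cKO replicate 1 (2.84, adjusted p = 0.136), the last of which held 53 of the 69 cKO reads.

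Without antibody none of the 5 was called (3 at an unadjusted p under 0.05, DESeq2 0), where 8.16% of all genes were. Kit differed by 1.41 (adjusted p = 0.13), Meis1 by 1.03 (adjusted p = 0.119) and Sox4 by -1.10 (adjusted p = 0.126), and without WT replicate 1 Meis1 and Sox4 were called (1.5 and -1.45, adjusted p = 0.0307 and 0.0255). With IFNAR1 antibody none was called (0 at an unadjusted p under 0.05, DESeq2 0), where 0.698% of all genes were, and Kit differed by 0.24 (adjusted p = 0.922). Set against control antibody, IFNAR1 antibody moved none of the 5 genes past the test in WT (0 at an unadjusted p under 0.05, DESeq2 0) or in cKO (1 at an unadjusted p under 0.05, DESeq2 0), where 11.2% and 4.68% of all genes were called. Kit in cKO cells changed by -2.17 ± 0.643 (adjusted p = 0.0616), and Gata2 in WT cells was called lower without WT IFNAR1 replicate 3, which leaves 2 libraries with no Gata2 read. The genotype difference with IFNAR1 antibody against that with control antibody called none (edgeR, 1 at an unadjusted p under 0.05, DESeq2 0), and 0% of all genes. For Kit it was -2.89 (adjusted p = 0.784). The cKO control group that both of these comparisons share was also the group with the highest stromal and endothelial sum (264 to 420 CPM, against 25.9 to 260 CPM in WT with control antibody and 87.0 to 142 CPM in cKO with IFNAR1 antibody). The part of these markers in the Kit differences was not tested.

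Per kilobase, Sox4 had the highest mean of the 8 genes in the antibody groups (2.01 to 2.66 CPM per kb), except in cKO cells without antibody, where it had 1.24 CPM per kb and Cd34 had 1.65 CPM per kb. It had 5.57, 18 and 14.7 CPM in WT and 6.55, 6.0 and 5.25 CPM in cKO cells without antibody, and 7.81 to 13.9 CPM in WT and 6.57 to 21.1 CPM in cKO cells with IFNAR1 antibody. The WT libraries without antibody were further apart than the means of the 2 genotypes. Cd34 had 1.32 to 8.61 CPM in WT and 4.63 to 20.4 CPM in cKO cells without antibody, 3.2 to 7.06 CPM and 10.4 to 15.3 CPM with control antibody, and 0.877 to 10.2 CPM and 0.380 to 11.6 CPM with IFNAR1 antibody. The genotypes did not overlap with control antibody and overlapped in both other conditions, and Cd34 was called in none of them. In the same libraries 17 of 20 proliferation genes rose with IFNAR1 antibody in WT and 13 of 20 in cKO, while of 29 stem and progenitor genes 4 rose and 2 fell in WT and 1 rose and 3 fell in cKO.

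**Figure D4:**
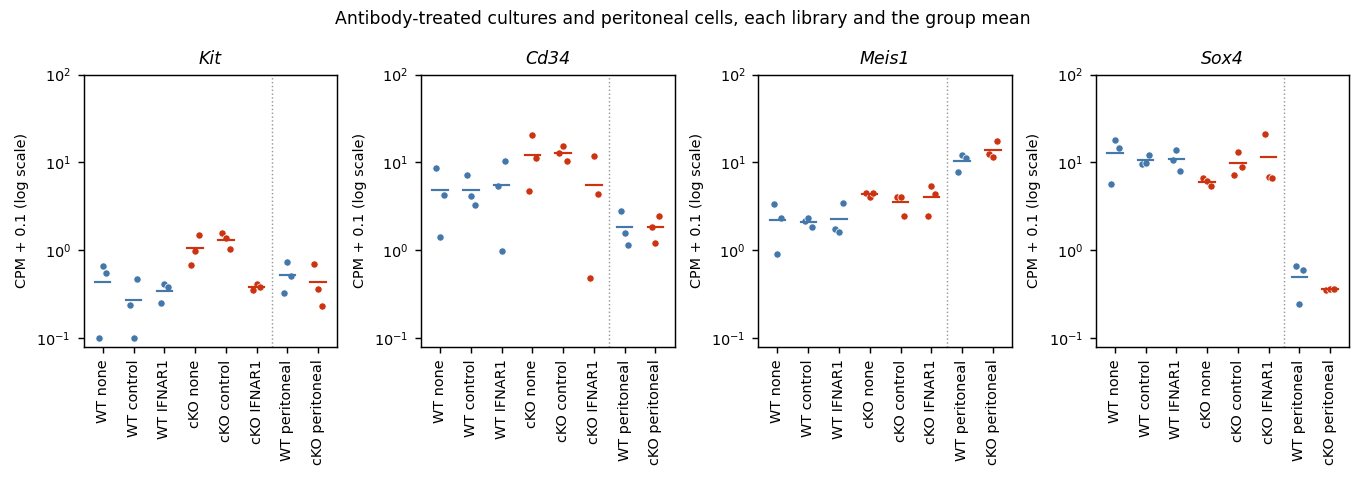
Level of Kit, Cd34, Meis1 and Sox4 in every antibody and peritoneal library, as CPM + 0.1 on a log scale, by genotype and treatment. Sox4 lies at 5.25 to 21.1 CPM in the antibody libraries, where its mean is below that of Cd34 in cKO cells without antibody and with control antibody, and Meis1 lies at 7.74 to 17.4 CPM in the peritoneal libraries. Horizontal lines are group means.

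The 3 BMDM sets were sequenced most deeply. The labels do not say whether they are separate cultures, so the sets are not counted as independent repeats. In each set 5 genes were higher in cKO than in WT: Kit, Flt3, Cd34, Myb and Gfi1. Cd34 had 10.1, 13.4 and 11.6 CPM in cKO against 1.52, 1.16 and 0.640 CPM in WT of set 1. It had 33.9, 14.4 and 27.2 CPM against 1.34, 2.24 and 2.35 CPM in set 2, and 7.48, 13.5 and 11.7 CPM against 0.695, 0.740 and 0.955 CPM in set 3. In every set the lowest cKO library was several times above the highest WT library. The differences were 3.38 ± 0.358 (adjusted p = 1.27e-07), 3.69 ± 0.297 (adjusted p = 2.33e-09) and 3.79 ± 0.375 (adjusted p = 4.29e-08, n = 3 and 3 in each set, edgeR). Myb had 5.67, 7.08 and 6.81 CPM against 0.910, 1.13 and 0.443 CPM in set 1, 4.31, 4.08 and 4.73 CPM against 0.505, 1.58 and 1.79 CPM in set 2, and 5.44, 8.98 and 5.75 CPM against 0.755, 0.701 and 0.391 CPM in set 3. No cKO library of any set reached down to a WT library. The Myb differences were 2.90 ± 0.349, 1.79 ± 0.306 and 3.39 ± 0.360 (adjusted p = 7.34e-07, 0.000108 and 1.2e-07, edgeR).

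The receptor Flt3 had 3.93, 4.34 and 4.16 CPM in cKO against 1.08, 0.469 and 1.23 CPM in WT of set 1 (2.24 ± 0.400, adjusted p = 0.000108). In set 2 it had 1.71, 1.27 and 1.58 CPM against 0.0253, 0.462 and 0.298 CPM (2.52 ± 0.524, adjusted p = 0.000859), and in set 3 3.63, 5.87 and 3.40 CPM against 1.03, 1.25 and 1.30 CPM (1.84 ± 0.365, adjusted p = 0.000308). Levels of both genotypes were lower in set 2 than in sets 1 and 3. Kit had 5.21, 6.72 and 4.63 CPM against 3.25, 1.41 and 1.33 CPM in set 1 (1.49 ± 0.301, adjusted p = 0.000407), 2.69, 3.63 and 2.65 CPM against 1.19, 1.90 and 1.92 CPM in set 2 (0.85 ± 0.299, adjusted p = 0.043) and 5.25, 7.69 and 5.66 CPM against 3.08, 1.6 and 1.30 CPM in set 3 (1.57 ± 0.286, adjusted p = 0.000127). The Kit call of set 2 was lost when any of its 6 libraries was left out (0.65, 0.97 and 0.95 without WT replicates 1, 2 and 3, and 0.93, 0.69 and 0.93 without cKO replicates 1, 2 and 3, adjusted p = 0.0584 to 0.203). Gfi1 had 1.75 to 2.02 CPM against 0.394 to 0.476 CPM in set 1 (2.11 ± 0.337, adjusted p = 2.92e-05), 0.911 to 1.27 CPM against 0.303 to 0.753 CPM in set 2 (0.90 ± 0.299, adjusted p = 0.0324) and 1.63 to 2.29 CPM against 0.234 to 0.391 CPM in set 3 (2.49 ± 0.342, adjusted p = 4.15e-06). The set 2 call for Gfi1 was lost without WT replicate 1 (0.56, adjusted p = 0.224) or cKO replicates 2 or 3 (0.78 and 0.88, adjusted p = 0.113 and 0.0786).

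Gata2 was called higher in sets 1 and 3 and not in set 2. It had 0.983, 0.979 and 0.727 CPM in cKO against 0.606, 0.0313 and 0.0985 CPM in WT of set 1 (1.97 ± 0.673, adjusted p = 0.0257) and 0.324, 1.48 and 0.914 CPM against 0.151, 0.234 and 0.174 CPM in set 3 (2.27 ± 0.674, adjusted p = 0.0102). In set 2 it had 1.78, 1.22 and 1.29 CPM against 0.480, 1.56 and 0.795 CPM, which overlapped (0.58, adjusted p = 0.325). The set 1 call was lost without WT replicates 2 or 3 (1.28 and 1.70, adjusted p = 0.168 and 0.0886) or cKO replicates 1 or 2 (1.90 each, adjusted p = 0.0616 and 0.0612), and the set 3 call without cKO replicate 2 (1.84, adjusted p = 0.0571). Sox4 went the other way in set 2. It had 4.22, 3.23 and 4.99 CPM in cKO against 8.59, 7.90 and 9.67 CPM in WT of set 2 (-1.07 ± 0.215, adjusted p = 0.000634), and overlapped in set 1 (3.54 to 5.26 CPM against 2.77 to 4.24 CPM, 0.31, adjusted p = 0.373) and set 3 (3.17 to 5.6 CPM against 2.45 to 3.3 CPM, 0.57, adjusted p = 0.0843). Without cKO set 3 replicate 1 it was called higher in set 3 (0.73, adjusted p = 0.0384). Meis1 had 2.55 to 5.82 CPM over all 27 libraries of this experiment and differed by -0.14, 0.24 and -0.25 between genotypes (adjusted p = 0.525, 0.252 and 0.22). Of the 8 genes 6, 5 and 6 were called higher in sets 1, 2 and 3, where 34.6%, 21.9% and 35.9% of all genes were called and 17.9%, 10.1% and 17.1% were higher, and 1 was called lower in set 2, where 11.8% were lower. Their median difference was 2.04, 0.87 and 2.06, against -0.03, -0.01 and -0.06 over all genes.

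The sets were not alike. The genotype difference of set 2 against that of set 1, added after the data were seen, was called for Sox4 (-1.38 ± 0.334, adjusted p = 0.00479, edgeR), 1 of 8 genes where 20% of all genes were called. That of set 3 against set 2 was called for Sox4 (1.64 ± 0.333, adjusted p = 0.00113), Myb (1.6 ± 0.515, adjusted p = 0.0296) and Gfi1 (1.59 ± 0.484, adjusted p = 0.022), 3 of 8 where 20.2% of all genes were called. That of set 3 against set 1 was called for none of the 8 (0 at an unadjusted p under 0.05, DESeq2 0) and for 0% of all genes. Levels of sets 1 and 3 were not tested against each other. The WT libraries of set 2 differed from the mean of the other WT sets in Gata2 (2.21), Sox4 (1.49, adjusted p = 7.39e-07), Cd34 (1.06) and Flt3 (-1.94), where 50.9% of all genes were called, and the cKO libraries of set 2 from the other cKO sets in Cd34 (1.16), Meis1 (0.44), Gfi1 (-0.76), Kit (-0.96) and Flt3 (-1.46), where 18.8% were. The labels do not say whether the 3 sets are separate cultures. WT libraries of sets 1 and 3 with the same number deviated together (r = 0.65, 0.65 and 0.24).

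**Figure D5:**
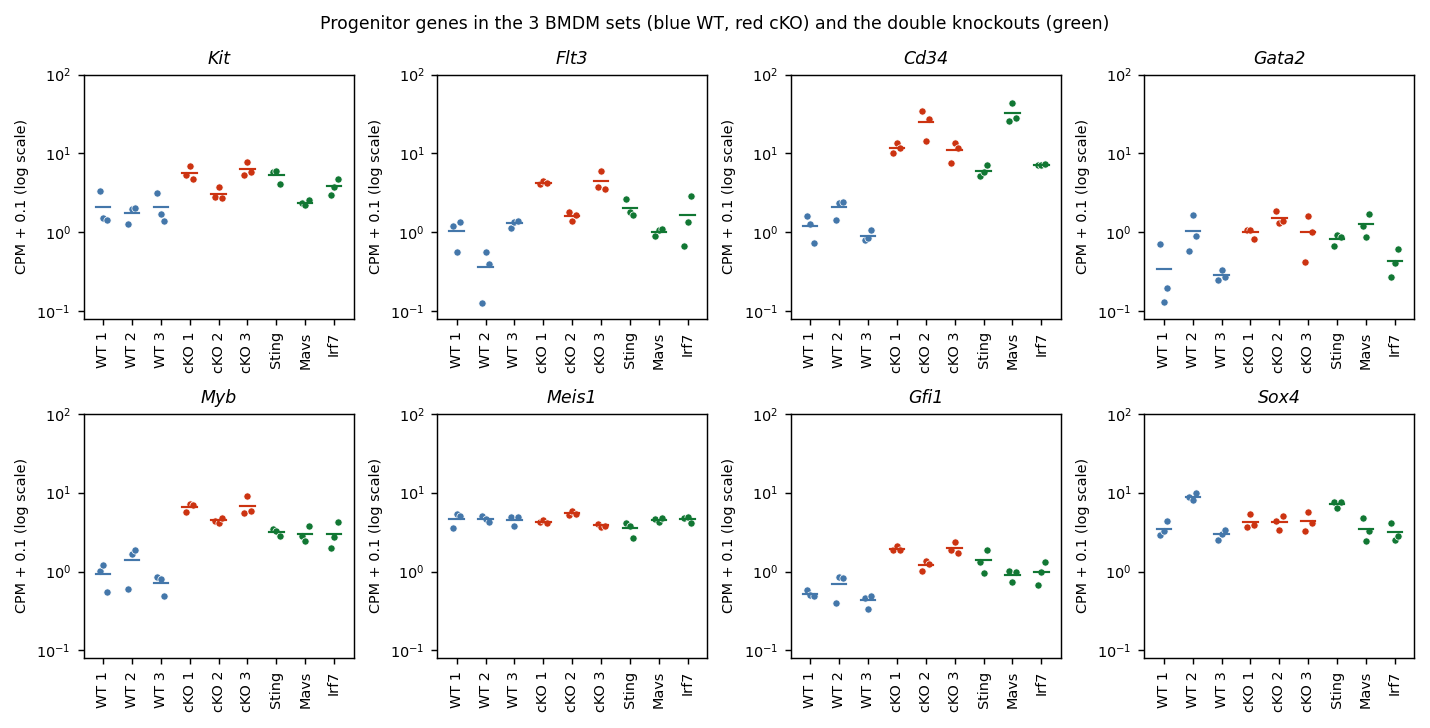
Level of each of the 8 genes in every library of the BMDM sets and of the cKO cells that also lack Sting, Mavs or Irf7, as CPM + 0.1 on a log scale. Cd34 lies at 0.640 to 2.35 CPM in WT and at 5.00 CPM or more in every other library, and Sox4 is highest in WT of set 2 (7.90 to 9.67 CPM).

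Beside the members, granule genes rose in cKO for 8, 6 and 7 of 12 in sets 1, 2 and 3 and fell for 0, 1 and 1. In set 1 the largest were Ly6c2 (4.60), Ctsg (3.45), Prtn3 (3.34) and Elane (3.02). Of 32 other stem and progenitor genes 14, 11 and 14 rose and 4 fell in each set, with Ly6a at 4.53, 4.5 and 4.30. In set 1 Prom1 rose (3.22) and in set 2 the adhesion receptor gene Adgrg1 (1.75). Partners rose for 7, 4 and 5 and fell for 3, 2 and 3 of 19, and in sets 1 and 3 Kitl rose (1.31 and 1.13) while Lmo2 (-0.86 and -0.92) fell. B lineage markers rose for 5, 2 and 3 of 6, mast cell and basophil markers for 2, 5 and 5 of 7 (1 fell in set 2), neutrophil genes for 5, 0 and 5 of 9 and proliferation genes for 7, 3 and 7 of 20. Stromal and endothelial markers rose for 4, 2 and 4 of 12 (1 fell in set 2). Their sums were 82.9 to 115 CPM in cKO against 29.8 to 57.6 CPM in WT of set 1, 79.5 to 114 CPM against 64.0 to 120 CPM in set 2 and 80.7 to 82.6 CPM against 30.5 to 37.3 CPM in set 3. Their part in the Cd34 differences was not tested.

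In cKO cells that also lacked Sting, the cytosolic DNA sensing adaptor, the Sting transcript (Tmem173) was at 5.01 to 6.10 CPM against means of 71.9 to 88.0 CPM in the cKO sets. Each double knockout was set against the mean of the 3 cKO sets and against the mean of the 3 WT sets. The labels do not say which set goes with which double knockout. In the order of the samples, cKO:StingKO follows set 1, cKO:MavsKO follows set 2 and cKO:Irf7KO follows set 3. Differences between sets enter these means, with 18.8% of all genes called between cKO set 2 and the other cKO sets. A call against a mean can thus not be told apart from a difference between sets. All 3 double knockouts share these means. If sets share cultures, the p-values against these means treat related libraries as separate. Cd34 had 5.00, 5.73 and 6.99 CPM in cKO:StingKO, below every cKO library and above every WT library of the 3 sets. It was lower than in cKO (-1.32 ± 0.235, adjusted p = 0.000129) and higher than in WT (2.29, adjusted p = 3.79e-07, edgeR). Myb had 3.40, 3.13 and 2.70 CPM, likewise between the genotypes (-0.90 ± 0.236 against cKO, adjusted p = 0.0043, and 1.80 against WT, adjusted p = 2.07e-05), and the first of these was not called against cKO set 2 alone (-0.50, adjusted p = 0.171). Sox4 had 7.44, 6.23 and 7.43 CPM and was higher than in cKO (0.75 ± 0.181, adjusted p = 0.00227) and than the WT mean (0.69, adjusted p = 0.00437), although not than WT set 2. Kit (3.99 to 5.80 CPM), Flt3 (1.55 to 2.52 CPM) and Gfi1 (0.865 to 1.77 CPM) were higher than in WT (1.45, 1.58 and 1.55, adjusted p = 1.71e-05, 0.00118 and 7.08e-05) and not called against the cKO mean. For Flt3 this depended on the reference set, since it was not called against WT set 1 or set 3 alone (1.15 and 0.72, adjusted p = 0.0574 and 0.175) and was lower than cKO set 1 and set 3 alone (-1.10 and -1.13, adjusted p = 0.021 and 0.0113). Kit was higher than cKO set 2 alone (0.79, adjusted p = 0.0233). Gata2 (0.567 to 0.829 CPM) was called against neither, and was called against WT set 3 alone (1.96, adjusted p = 0.0343) and against WT without WT set 1 replicate 1 or WT set 2 replicate 2 (1.70 and 1.28, adjusted p = 0.0169 and 0.0396). Meis1 differed by -0.35 and -0.40 from cKO and WT (adjusted p = 0.0423 and 0.0195), with overlapping libraries, and both calls were lost against set 1 alone (-0.28 and -0.43, adjusted p = 0.215 and 0.0501), against set 3 alone (-0.12 and -0.37, adjusted p = 0.606 and 0.0675) and without cKO:StingKO replicate 3 (-0.18 and -0.23, adjusted p = 0.367 and 0.228). Of the 8 genes 4 were called against cKO and 7 against WT, where 36.4% and 40.2% of all genes were. Stromal and endothelial markers summed to 226 to 280 CPM, above all WT and cKO set libraries, with 6 of 12 higher than in cKO. Their part in the Cd34 level was not tested.

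The paper reports the deletion of Mavs, an adaptor of RNA sensing, from genomic PCR, qRT-PCR and RNA-seq tracks of its exons. Counts over a whole gene cannot show whether single exons were deleted. In libraries labelled cKO:MavsKO, Mavs was at a mean of 37.5 CPM against 38.9 to 49.8 CPM in the cKO sets, so gene-level counts do not show its loss. Cd34 had 25.5, 43.5 and 28.1 CPM there, higher than the cKO mean (1.13, adjusted p = 0.000207) and than WT (4.75, adjusted p = 3.82e-14, edgeR), but not higher than cKO set 2 alone (0.36, adjusted p = 1). Kit (2.11 to 2.46 CPM, -1.05, adjusted p = 0.00488), Flt3 (0.789 to 0.995 CPM, -1.70, adjusted p = 0.00118), Myb (2.32 to 3.63 CPM, -1.0, adjusted p = 0.00526) and Gfi1 (0.637 to 0.911 CPM, -0.96, adjusted p = 0.00822) were lower than the cKO mean. All 5 calls were lost against cKO set 2 alone (-0.40, -0.72, -0.61 and -0.45 for these 4 genes, adjusted p from 0.693 to 1), and those of Myb and Gfi1 also without cKO:MavsKO replicate 2 (-0.86 and -0.80, adjusted p = 0.057 and 0.0826). Against WT, Gata2 (1.73, adjusted p = 0.00211), Myb (1.69, adjusted p = 2.48e-05) and Gfi1 (0.87, adjusted p = 0.0163) were higher beside Cd34, and the Gfi1 call was lost without cKO:MavsKO replicate 1 or 3 (0.78 and 0.81, adjusted p = 0.0731 and 0.068). Against WT set 2 alone Gata2 (0.25, adjusted p = 0.729) and Gfi1 (0.45, adjusted p = 0.371) were not called, while Flt3 was higher (1.80, adjusted p = 0.0276) and Sox4 lower (-1.38, adjusted p = 5.61e-05), and Gfi1 was not called against WT set 1 alone (0.91, adjusted p = 0.058). Sox4 was called lower than WT without cKO:MavsKO replicate 1 (-0.68, adjusted p = 0.0199). Thus 5 of 8 genes were called against cKO and 4 against WT, where 9.32% and 43.2% of all genes were. Stromal and endothelial markers summed to 139 to 370 CPM, with 8 of 12 higher than in cKO and 12 of 12 higher than in WT. Their part in the Cd34 level was not tested.

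In cKO:Irf7KO cells, Irf7, a transcription factor of the interferon response, had a mean of 106 CPM against 310 to 388 CPM in the cKO sets and 60.6 to 132 CPM in WT. Cd34 had 7.09, 6.95 and 7.23 CPM, lower than the cKO mean (-1.06, adjusted p = 0.0032) and higher than WT (2.56, adjusted p = 6.83e-08, edgeR). The first call was lost against cKO set 1 alone (-0.72, adjusted p = 0.0917) and cKO set 3 alone (-0.62, adjusted p = 0.35). Flt3 had 0.574, 1.24 and 2.79 CPM, Myb 1.89, 2.61 and 4.13 CPM, Gfi1 0.574, 0.879 and 1.2 CPM and Gata2 0.169, 0.302 and 0.516 CPM, and replicate 3 was the highest of the 3 for each of them and for Kit (2.87, 3.68 and 4.58 CPM). Against cKO, Flt3 (-0.98, adjusted p = 0.0368), Gata2 (-1.68, adjusted p = 0.0241), Myb (-1.01, adjusted p = 0.00633) and Gfi1 (-0.82, adjusted p = 0.0246) were lower, and all 4 calls were lost without replicate 1 (-0.61, -1.39, -0.79 and -0.60, adjusted p = 0.264, 0.139, 0.0724 and 0.189) or replicate 2 (-0.84, -1.61, -0.93 and -0.81, adjusted p = 0.206, 0.121, 0.0561 and 0.111). Against cKO set 2 alone Flt3 (-0.01, adjusted p = 0.99), Myb (-0.61, adjusted p = 0.125) and Gfi1 (-0.31, adjusted p = 0.489) were not called, and Gata2 was not called against set 1 or set 3 alone (-1.45 and -1.46, adjusted p = 0.123 and 0.274). The Flt3 call was also lost without cKO set 1 replicate 2, cKO set 2 replicates 1 or 3, or cKO set 3 replicate 2 (-0.97, -0.95, -0.97 and -0.89, adjusted p = 0.0526, 0.0636, 0.053 and 0.0587). Against WT, Kit (0.97, adjusted p = 0.00286), Flt3 (1.22, adjusted p = 0.0144), Myb (1.69, adjusted p = 6.56e-05) and Gfi1 (1.02, adjusted p = 0.00879) were higher, and the Flt3 and Gfi1 calls were lost without replicate 3 (0.53 and 0.76, adjusted p = 0.388 and 0.11). Flt3 was not called against WT set 1 or set 3 alone (0.79 and 0.36, adjusted p = 0.203 and 0.565) and Gfi1 not against WT set 2 alone (0.59, adjusted p = 0.172), where Gata2 and Sox4 were lower (-1.55 and -1.51, adjusted p = 0.0317 and 1.4e-05). Sox4 was called lower than WT without WT set 3 replicate 1 (-0.56, adjusted p = 0.0498) or without cKO:Irf7KO replicate 1 (-0.75, adjusted p = 0.0239). Of the 8 genes 5 were called against cKO and 5 against WT, where 10.6% and 31.9% of all genes were. In these libraries 9 of 32 other stem genes and 7 of 9 neutrophil genes were lower than in cKO, and 6 of 12 granule genes. Stromal and endothelial markers summed to 88.3 to 116 CPM, with 1 of 12 higher and 1 lower than in cKO.

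Over the 27 groups, Kit (23.5 ± 2.64 CPM, mean ± SD, n = 3), Gata2 (6.01 ± 2.55 CPM), Myb (25.3 ± 3.01 CPM) and Gfi1 (19 ± 2.51 CPM) had their highest mean in cKO cultures of day 3, with WT day 3 next. The Kit, Gata2 and Myb libraries of these 2 groups did not overlap, and the Gfi1 libraries did. Flt3 was highest in cKO sets 3 (4.30 ± 1.37 CPM) and 1 (4.15 ± 0.206 CPM), which overlapped, and Cd34 in untreated cKO cells of day 8 (47.7 ± 9.33 CPM, n = 2) and in cKO day 5 cultures (47.7 ± 15.8 CPM), which also overlapped. Meis1 was highest in peritoneal macrophages and Sox4 in WT cells without antibody (12.7 ± 6.42 CPM), which overlapped with the next groups. Cd34 had its lowest means in WT of set 3 (0.797 ± 0.139 CPM), set 1 (1.10 ± 0.440 CPM) and day 7 (1.16 ± 1.2 CPM). Group levels from different experiments were scaled separately and stand here side by side without a test.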

How the data were processed

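The authors trimmed reads with Cutadapt and aligned them with STAR to mm10 (GRCm38), with tool versions not given in the sources used here. The deposited values are the raw counts per gene that STAR wrote for each library, not normalized and not summed over replicates, and the column that ignores strand was used, so reads of overlapping genes on opposite strands cannot be told apart. The study itself quantified with RSEM and tested with SARTools. Labels name rRNA depletion for all libraries, while the methods name a low-input kit with amplification for peritoneal macrophages, so kits may differ between experiments.

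Lines that name no gene were left out. Of 81 libraries 79 were placed by their labels and 2 were not. Genes were filtered in each experiment by edgeR's filterByExpr (minimum count 10, minimum total 15), libraries scaled by TMM, and contrasts tested in edgeR 4.0.16 by its quasi-likelihood test (R 4.3.3 with limma 3.58.1), with every group of the experiment in the model and Benjamini-Hochberg adjustment over all genes tested, at an adjusted p under 0.05. All 8 genes were tested in the time course (15955 genes) and in the BMDM sets (18083), 5 in the antibody experiment (17191), 4 at day 8 (13075) and 2 in peritoneal macrophages (12361). The method was tested on simulated data, for 1 comparison of each experiment. There edgeR recovered 30.4% to 55.9% of 2-fold changes and 77.8% to 91% of 4-fold changes. Of its calls 4.61% to 11.9% were false, against 9.94% to 20.5% of the calls of DESeq2. A change that did not pass may thus have been missed, and a call by DESeq2 alone is the less certain. A gene with 3 reads or fewer in a library is at the floor of that library. Correlations used log2 CPM with a prior count of 2.

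The 8 genes, the lists set beside them and the comparisons were chosen with earlier results of these data known. The 8 genes are always named. From each other list up to 4 genes a comparison were named, those with the largest fold change among genes called, with a mean of at least 1 CPM in either group and groups that do not overlap, and marker genes could also be named for being highest or at 0. The 3 genes most like each of the 8 were those with the highest Pearson r over the 18 time course libraries. The targeted genes were named as a check of the labels. Some genes that this rule names are not reported here.

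Alternatives were DESeq2 1.42.0, RLE size factors, no filter, a mean of at least 1 CPM, the strand column of larger total, a block for the replicate number, a model of only the groups compared, each library left out in turn, either placement of the 2 conflicting libraries, each reference set alone and, added after the data were seen, the earlier default of the quasi-likelihood fit. The replicate numbers come from the titles. They were taken to pair libraries where every same-numbered pair deviated together from its group means with a correlation over 0.1, which held in 10 of 22 comparisons, among them cKO against WT on days 3, 5 and 7 (0.2 to 0.43, 0.17 to 0.29 and 0.19 to 0.48) and in sets 1 and 3 (0.19 to 0.27 and 0.13 to 0.39). No 2 libraries of a group were alike enough to be 1 library (lowest chi-square per degree of freedom 3.67 over 77 pairs). Libraries of different groups or sets were not compared in this way. Promoters are RefSeq sequences of GRCm38.p6.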

Additional observations from a re-analysis of the deposited data

Results flagged for a closer look

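The difference between cKO and WT was not the same in the 3 BMDM sets, and 4 such differences passed a test of the difference itself (edgeR, added after the data were seen). For Sox4 the difference of set 2 less that of set 1 was -1.37977 (adjusted p = 0.00479) and that of set 3 less set 2 was 1.63956 (adjusted p = 0.00113), and both calls held in 12 of 12 fits that left out 1 library. Sox4 was lower in all 3 cKO libraries than in all 3 WT libraries of set 2 and overlapped in sets 1 and 3. For Myb the difference of set 3 less set 2 was 1.60089 (adjusted p = 0.0296) and for Gfi1 1.5882 (adjusted p = 0.022), which held in 8 and 9 of 12 such fits. Both were higher in every cKO library of each set. In WT libraries Sox4 was higher in set 2 than in the other sets by 1.49 (adjusted p = 7.39e-07), and 50.9% of all genes were called between those WT libraries. Groups held at most 3 libraries, too few for a test of libraries that stand apart from their group.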

How the results depend on the processing

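RLE size factors changed none of the 30 counts of genes called among the 8. In a model limited to the groups compared, the count became 2 on day 3 and 0 on days 5 and 7 for cKO against WT, 0 for cKO day 7 against day 5 and for interferon-γ in cKO, 3 for control antibody and 1 for IFNAR1 antibody in cKO. DESeq2 called 3 on day 7, 3 for WT day 7 against day 5, 2 for cKO day 7 against day 5 and 1 between genotypes under interferon-γ. The strand column gave 1 on day 5, 1 for WT day 7 against day 5 and 2 for cKO:Irf7KO against cKO. Without a filter 1 was called for WT day 7 against day 5, 1 at day 8 untreated and 2 for interferon-γ in cKO. The earlier quasi-likelihood default gave 1 for WT day 7 against day 5 and 0 for control antibody, and a mean of at least 1 CPM also gave 0 there. Placing the conflicting libraries by title gave 0 for interferon-γ in cKO, and placing them by library name left that count unchanged. Against reference set 2 alone, cKO:MavsKO against cKO gave 0, and cKO:Irf7KO against cKO gave 3, 2 and 3 with sets 1, 2 and 3. The 1 reversal was Sox4 in cKO:StingKO against WT set 2 alone (-0.31, adjusted p = 0.257).

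Leaving out 1 library gave 0 to 2 calls for cKO against WT on day 5, 0 to 1 on day 7, 2 to 4 for WT day 5 against day 3, 0 to 2 for WT day 7 against day 5, 0 to 1 for cKO day 7 against day 5, 0 to 1 between genotypes under interferon-γ, 1 to 2 for interferon-γ in WT and 0 to 1 in cKO, 0 to 2 without antibody, 0 to 1 with control antibody, 0 to 1 for IFNAR1 antibody in WT, 3 to 5 for cKO:MavsKO and 1 to 5 for cKO:Irf7KO against cKO, and 3 to 6 for cKO:Irf7KO against WT. In all, 33 of 224 such counts moved by over 1.5 times, and among values of genes not called 76 changed sign. Over all genes, counts of calls moved by over 1.5 times in 13 comparisons with DESeq2, 17 with only the groups compared, 7 with the block, 6 without a filter and 100 of the 224 fits without 1 library. The cause was not tested.

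With the replicate block, in the 10 comparisons whose numbers pair, no call among the 8 genes changed, while all genes called went from 291 to 448 (2.81%) for cKO against WT on day 7 and from 8 to 26 (0.163%) for cKO day 7 against day 5. In the 12 others, which share only a number, the block gave 1 call for WT day 7 against day 5 (Myb, with all genes called going from 24 to 247) and 1 for IFNAR1 antibody in cKO (Kit). Of the 8 genes, the filter on low counts left 4 untested at day 8, 6 in peritoneal cells and 3 in antibody cultures. Kit with control antibody rested on 0 to 4 reads a library in WT and 7 to 53 in cKO.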

Other observations

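The 2 cKO day 8 libraries whose title and library name disagree held 9674853 and 10498769 counts on genes. The library whose title names interferon-γ had 3.81 CPM of Kit (47 reads), 70.7 CPM of Cd34 (872 reads), 4.78 CPM of Meis1 (59 reads) and 1.05 CPM of Sox4 (13 reads). The library whose title names none had 0.962 CPM of Kit (9 reads), 15.2 CPM of Cd34 (142 reads), 4.17 CPM of Meis1 (39 reads) and no Sox4 read. Flt3 had no read in either, Gata2 had 4 and 0, and Myb and Gfi1 had 2 and 0 each. Neither library was placed in a group.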
